A study of Mus musculus with 7 samples.

Results

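Rbpj encodes the DNA-binding factor at the end of the canonical Notch pathway. Without a signal it recruits corepressors such as the SPEN protein to its sites. When a Notch receptor is cleaved, the intracellular part of the receptor enters the nucleus, binds RBPJ together with a Mastermind protein (MAML1) and turns the same sites on. The best known targets are the Hes and Hey genes, which encode basic helix-loop-helix repressors, together with feedback genes of the pathway such as Nrarp and Dtx1. In the liver the pathway is known for guiding hepatoblasts into the bile duct lineage, and in vessels it acts in endothelial and mural cells.

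The 10 genes described here are Rbpj itself, the cofactor genes Maml1 and Spen, and the target genes Hes1, Hes6, Hey1, Hey2, Heyl, Nrarp and Dtx1. They were chosen by gene name on the array, out of 35666 genes named there, and every probe that carried one of the names was read, which gave 11 probes of 60 bases (2 for Rbpj and 1 for each other gene). Expression was measured in whole liver of untreated C57BL/6J mice at 4 weeks of age with Agilent arrays of 1 dye, 1 array per animal. The Rbpj+/+ group (Rbpj +/+_1155 and Rbpj +/+_1156, then Rbpj +/+_1024 and Rbpj +/+_991) carried a floxed Rbpj allele in both copies and no Cre. The Rbpj-/- group (Rbpj -/-_N3, Rbpj -/-_N5 and Rbpj -/-_2866) carried the same floxed alleles and AlfpCre, a Cre gene under albumin and alpha-fetoprotein control elements that acts in hepatoblasts and the hepatocytes and cholangiocytes made from them, so that endothelial, stellate and blood-derived cells of the organ keep an undeleted gene. The labels describe the Rbpj-/- livers as cholestatic and the controls as free of cholestasis, and genotype and cholestasis cannot be told apart here.

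A level is given as the log2 intensity of a probe relative to the 75th percentile of its array, and levels of different probes are not set against each other. Sums over marker lists do add different probes, and bright probes weigh most in such a sum. Values of single arrays are given in the order in which the animals of each group are named above. All 7 arrays lay on 1 slide, the Rbpj+/+ arrays in the first row and the Rbpj-/- arrays in the second, so row and genotype cannot be told apart. Between 41.1% and 65.0% of probes were well above background. Dim probes were brighter on Rbpj +/+_1156 and Rbpj -/-_N3 than on the other 5 arrays, with median intensities of 19.7 and 31.2 against 5.40 to 8.80. The hepatocyte markers were well above background on all arrays for 8 of 8 genes. Of the cholangiocyte markers this held for 6 of 9, with Epcam, Tspan8 and Cldn4 not tested.

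To show what RBPJ is known to read, the promoter windows of the members were taken from RefSeq (build GRCm38.p6, 250 bases before to 50 after a gene's start) and searched on both strands for the RBPJ motif GTGGGAA. Symbols of 7 members (Rbpj, Maml1, Spen, Hes6, Hey2, Nrarp and Dtx1) matched, with 9 windows. Hes1, Hey1 and Heyl had no window, so their promoters were not searched. The motif was in the windows of 2 of the 7 searched members, Hey2 and Spen, and in 6.38% of all 32851 windows. The stretches that hold it are printed 5′ to 3′ on the strand of the gene, with the motif in capitals.
Hey2, chr10:30842963-30843003, minus strand, 220 to 180 bases before the start: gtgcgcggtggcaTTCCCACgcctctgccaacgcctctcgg
Hey2, chr10:30842769-30842843, minus strand, 60 bases before to 15 after the start: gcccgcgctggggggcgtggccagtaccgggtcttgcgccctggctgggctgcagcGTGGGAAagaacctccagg
Spen, chr4:141538598-141538677, minus strand, 80 to 1 bases before the start: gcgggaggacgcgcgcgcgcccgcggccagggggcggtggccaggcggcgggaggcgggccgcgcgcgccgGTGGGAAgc

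Hey2 thus held the motif 207 bases before its start, where the strand of the gene reads the reverse complement, and 4 bases before its start in the direction of the gene. Spen held it 9 bases before its start in the direction of the gene. The shorter core TGGGAA, which lies inside the motif, was also in the windows of Rbpj, in 3 of the 7 members and in 25.6% of all windows. The first Rbpj window shows 2 copies of this core, in capitals.
Rbpj, chr5:53590186-53590296, plus strand, 160 to 50 bases before the start: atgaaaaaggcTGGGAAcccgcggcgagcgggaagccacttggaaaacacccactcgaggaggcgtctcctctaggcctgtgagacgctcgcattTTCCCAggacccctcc

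Sites known for binding by the HES and HEY proteins were searched in the same windows. The N box CACNAG was found for Hes6 (in 1 of its 2 windows), Nrarp and Dtx1, 3 of the 7 members, and in 42.5% of all windows. The class C site CACGCG was found for Dtx1 and in 9.27% of all windows. The window of Maml1 held none of the 4 motifs. These matches describe letters only, and binding was not measured.

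Of the 10 members, 8 cleared the background on every array of 1 genotype or of both and could be tested. In Rbpj-/- liver Rbpj and Hes6 fell and Hey1 rose. The other 5 tested members (Maml1, Spen, Hes1, Heyl and Dtx1) did not pass the test, and Hey2 and Nrarp were too dim to be tested. In limma 34.2% of all 18755 tested genes passed an adjusted p of 0.1, 14.6% higher and 19.5% lower in Rbpj-/- liver, so that 3 of 8 members, 1 higher and 2 lower, is close to the share of all genes. The split over all genes depended on the scaling, with 2741 higher and 3665 lower here. It was 3116 and 2847 after quantile normalization, 3397 and 3236 with the percentile over detected probes, and 3100 and 2802 in the series matrix. The series matrix follows the quantile-normalized values and is not a separate scaling. The median log2 difference of the tested members was -0.56, and that of all tested genes was -0.13.

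**Figure D1:**
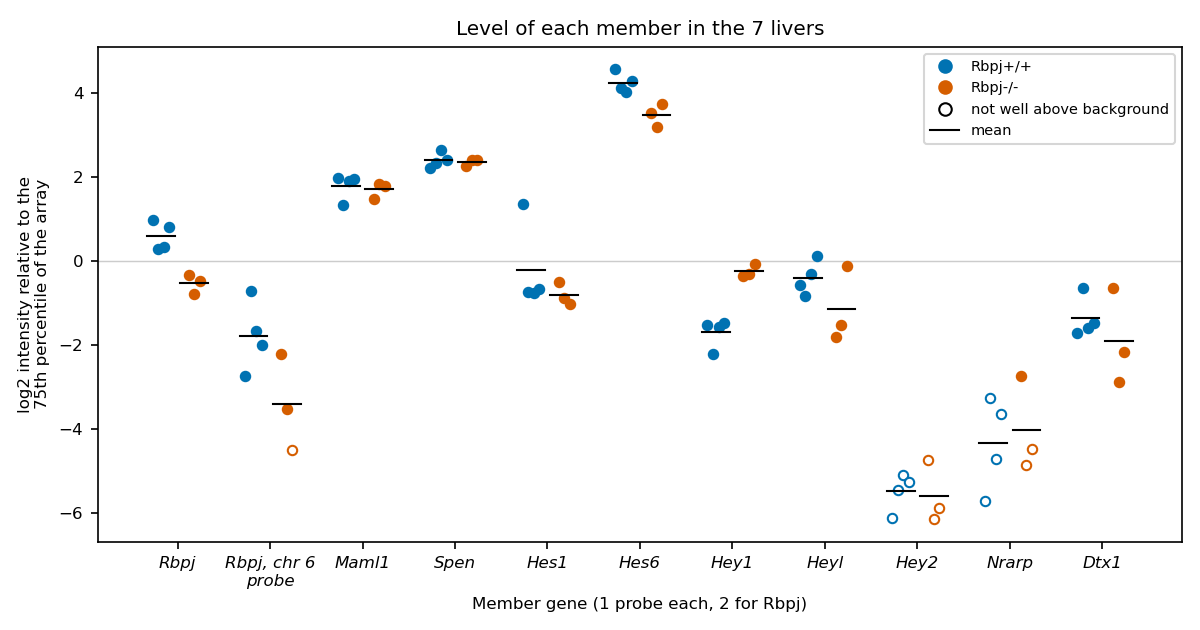
Level of the 11 member probes in each liver, as log2 intensity relative to the 75th percentile of the array (vertical axis), with Rbpj+/+ in blue (n = 4), Rbpj-/- in orange (n = 3), black bars for means and open circles for values not well above background. The genotypes do not overlap for the first Rbpj probe, Hes6 and Hey1, 1 Rbpj+/+ array stands apart for Hes1 at 1.34, and Hey2 has open circles only. Heights of different probes are not comparable.

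Rbpj, the gene targeted in these mice, was read first. Its brighter probe lies at chr5:54048503-54048562 (mm9, plus strand). The levels were 0.97, 0.29, 0.33 and 0.81 in the 4 Rbpj+/+ livers. In the 3 Rbpj-/- livers they were -0.35, -0.78 and -0.48. Every Rbpj-/- array was below every Rbpj+/+ array, with means of 0.60 ± 0.34 (SD, n = 4) and -0.54 ± 0.22 (SD, n = 3). Such a lack of overlap was found for 36.6% of all tested genes. The level fell by 1.13 on the log2 scale (SE 0.24, 95% interval -1.67 to -0.60), which is 2.19-fold lower, with a limma adjusted p of 0.0115. The exact two-sided permutation test gave p = 0.0286, the smallest value that the 35 assignments of 4 and 3 animals can give. Transcript was still well above background in 3 of 3 Rbpj-/- livers, and in whole liver fewer cells of a type and less RNA per cell cannot be told apart. Before scaling, the intensities overlapped, at 72.3 to 200.3 in Rbpj+/+ and 75.6 to 111.8 in Rbpj-/- liver, while the 75th percentile was 65.4 to 117.2 and 140.4 to 165.8.

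The deletion removes internal exons, and where the probe lies relative to these exons was not analysed here, so its level is no check of the genotype labels. The difference lay between -1.24 and -1.01 with each animal left out, and its adjusted p stayed between 0.0120 and 0.0555. Without any filter on dim probes the same difference had an adjusted p of 0.108.

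The dimmer Rbpj probe is shown because the design places it on another chromosome than the gene, at chr6:46479373-46479432 (mm9, minus strand), and RefSeq lists a pseudogene, Rbpj-ps3, on chromosome 6.
Rbpj probe placed on chromosome 6, no capitals: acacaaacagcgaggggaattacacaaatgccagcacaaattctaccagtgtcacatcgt

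This probe read -2.74, -0.73, -1.68 and -2.01 in Rbpj+/+ liver and -2.22, -3.53 and -4.51 in Rbpj-/- liver. The genotypes overlapped, since Rbpj -/-_N3 lay above Rbpj +/+_1155. It was well above background on 4 of 4 and 2 of 3 arrays. The difference of -1.63 (SE 0.58) had a limma adjusted p of 0.0723, and the exact permutation test gave p = 0.114. Leaving out Rbpj +/+_1156, Rbpj +/+_1024, Rbpj +/+_991, Rbpj -/-_N5 or Rbpj -/-_2866 took the adjusted p above 0.1, to between 0.107 and 0.226. Without Rbpj -/-_N3, an array with brighter dim probes, the difference was -2.23 (adjusted p = 0.0342), and without both Rbpj +/+_1156 and Rbpj -/-_N3 it was -1.88 (0.0382). Normexp correction gave -0.69 (0.0209). The call was lost with the percentile over probes detected on all arrays (-1.55, adjusted p = 0.148) and without the filter on dim probes (-1.63, 0.298). Of the 9 alternatives other than leaving out 1 animal, 7 kept it. Which of gene and pseudogene this probe reads was not tested. It was not used to represent Rbpj, except in the alternative that averages a gene's probes.

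Both cofactor genes among the members stayed close to their control level. Maml1, which encodes the coactivator of the cleaved receptor, was read at chr11:50069166-50069225 (mm9, minus strand). It measured 1.97, 1.34, 1.90 and 1.94 in Rbpj+/+ liver and 1.47, 1.84 and 1.79 in Rbpj-/- liver. The Rbpj-/- values lay inside the Rbpj+/+ range. The difference was -0.09 (SE 0.22, 95% interval -0.59 to 0.42, limma adjusted p = 0.795).

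Spen, which encodes a large corepressor bound by RBPJ, was read at chr4:141023819-141023878 (mm9, minus strand), and its promoter stretch with the RBPJ motif is printed above. It measured 2.21, 2.32, 2.63 and 2.41 in Rbpj+/+ liver and 2.27, 2.40 and 2.41 in Rbpj-/- liver. These Rbpj-/- values too lay inside the Rbpj+/+ range. The difference was -0.03 (SE 0.18, 95% interval -0.45 to 0.38, limma adjusted p = 0.914). For Spen the interval leaves room for a change of at most 0.45 on the log2 scale in either direction, the narrowest bound among the tested members, and the sign of so small a difference turned under 2 other scalings.

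Hey1, whose product is a repressor well known from Notch signalling in endothelium and heart, was the tested member that rose. It was read at chr3:8663432-8663491 (mm9, minus strand). The Rbpj+/+ levels were -1.53, -2.21, -1.57 and -1.48. The Rbpj-/- levels were -0.35, -0.31 and -0.08. All Rbpj-/- arrays were above all Rbpj+/+ arrays, with means of -1.70 ± 0.34 (SD, n = 4) and -0.25 ± 0.15 (SD, n = 3). The rise was 1.45 on the log2 scale (SE 0.23, 95% interval 0.93 to 1.97), or 2.73-fold, with a limma adjusted p of 0.00402 and an exact permutation p of 0.0286. Before scaling the intensities did not overlap, at 18.5 to 35.6 against 104.8 to 111.8. The 75th percentile was higher on every Rbpj-/- array than on any Rbpj+/+ array, while the median intensities overlapped. Unscaled values favour such a gap for a gene that rises relative to that percentile.

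Hey1 passed in all 17 alternatives, with adjusted p between 0.00175 and 0.0591, although normexp background correction lowered the difference to 0.55. Some markers of cells that AlfpCre spares were higher too. Over all tested genes 14.6% were higher and 19.5% lower. Of 8 endothelial markers 4 were higher in Rbpj-/- liver (Vwf, Clec4g, Cdh5 and Tek). Kdr was lower, by 1.19 on the log2 scale (limma adjusted p = 0.00689). Stab2, Pecam1 and Lyve1 did not pass, with differences of 0.48, 0.42 and 0.13. The summed level of the 8, in multiples of the array's 75th percentile, was 55.1 to 80.5 in Rbpj+/+ and 95.3 to 146.2 in Rbpj-/- arrays. Bright probes weigh most in this sum, and Clec4g had the highest mean of the 8 in both genotypes, 4.77 and 5.98. Of 6 mural and smooth muscle markers 4 were tested and all 4 were higher, with sums of 9.18 to 14.6 and 22.4 to 29.3. Cnn1 was well above background on 0 of 4 Rbpj+/+ and 3 of 3 Rbpj-/- arrays. For the endothelial marker Tek it was 2 of 4 and 3 of 3. Both entered the test only through the Rbpj-/- group, where they were high. The cholangiocyte markers gave 2 higher and 0 lower of 6 tested, with sums of 3.99 to 4.97 and 4.89 to 13.2. The part of these cells in the Hey1 difference was not tested.

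Hes6 encodes a Hes family protein that is known to counteract HES1, and it is grouped here with the targets by family. It was read at chr1:93308264-93308323 (mm9, minus strand). Its levels were 4.55, 4.11, 4.01 and 4.27 in Rbpj+/+ liver and 3.53, 3.19 and 3.72 in Rbpj-/- liver. The genotypes did not overlap, and the means were 4.24 ± 0.23 (SD, n = 4) and 3.48 ± 0.27 (SD, n = 3). Hes6 fell by 0.76 on the log2 scale (SE 0.22, 95% interval -1.25 to -0.27), 1.69-fold, with a limma adjusted p of 0.0363 and an exact permutation p of 0.0286.

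This call was less firm than that of Hey1. Normexp background correction lowered the Hes6 difference to -0.41 (adjusted p = 0.152). Without the filter on dim probes the difference was the same, -0.76, with an adjusted p of 0.211, and without Rbpj -/-_N5 it was -0.61 with 0.142. Before scaling, the intensities overlapped, at 928.8 to 2407 in Rbpj+/+ and 1184 to 1645 in Rbpj-/- liver. The 75th percentile was higher on every Rbpj-/- array than on any Rbpj+/+ array, while the median intensities overlapped. Unscaled values favour such an overlap for a gene that falls relative to that percentile. Of 8 hepatocyte markers 4 (Alb, Ttr, Apoa1 and Asgr1) were lower and 0 higher, and 4 did not pass, with differences of 0.94 for Cps1, 0.52 for Tat, -0.07 for Ass1 and -0.32 for Hnf4a. Their sums were 2474 to 3921 in Rbpj+/+ and 1946 to 2488 in Rbpj-/- arrays, which overlap. Over all tested genes 19.5% were lower and 14.6% higher. The part of hepatocyte RNA in the Hes6 and Rbpj differences was not tested.

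**Figure D2:**
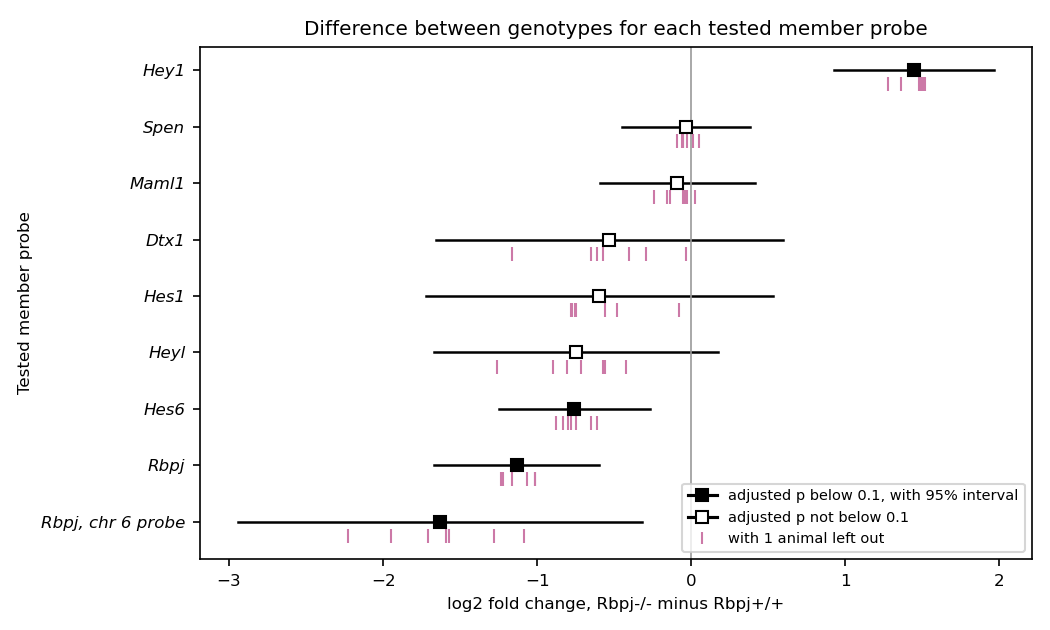
Log2 difference between Rbpj-/- (n = 3) and Rbpj+/+ (n = 4) liver for the 9 tested member probes (squares, horizontal axis), with 95% intervals from limma as lines, filled squares where the adjusted p was below 0.1 and ticks for the values with 1 animal left out. Hey1 lies right of 0 and Rbpj and Hes6 left of it under every omission, while a tick of Hes1 at -0.08 and a tick of Dtx1 at -0.03 come close to 0.

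Hes1, the repressor most often used as a readout of Notch activity, was read at chr16:30067820-30067879 (mm9, plus strand). It measured 1.34 in Rbpj +/+_1155 but -0.75, -0.76 and -0.68 in the other Rbpj+/+ livers. The Rbpj-/- livers gave -0.50, -0.88 and -1.04. Apart from Rbpj +/+_1155, the control values lay inside the Rbpj-/- range. The difference was -0.60 (SE 0.50, 95% interval -1.72 to 0.53) with a limma adjusted p of 0.406, and it was -0.08 without Rbpj +/+_1155. The interval thus held a fall of 1.72 as well as a rise of 0.53 on the log2 scale.

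Heyl, known from vascular smooth muscle, was read at chr4:122926975-122927034 (mm9, plus strand). Its levels were -0.58, -0.85, -0.31 and 0.12 in Rbpj+/+ liver and -1.80, -1.53 and -0.13 in Rbpj-/- liver. Rbpj -/-_N3 and Rbpj -/-_N5 lay below all Rbpj+/+ arrays, whereas Rbpj -/-_2866 lay above 3 of them. The difference of -0.75 (SE 0.41, 95% interval -1.67 to 0.17) had a limma adjusted p of 0.209. Without Rbpj -/-_2866 it was -1.26 with an adjusted p of 0.0313, so this animal decides the call.

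Dtx1, which encodes a ubiquitin ligase that binds Notch receptors, was read at chr5:121130278-121130337 (mm9, minus strand). It gave -1.73, -0.64, -1.61 and -1.49 in Rbpj+/+ liver and -0.64, -2.90 and -2.16 in Rbpj-/- liver. The highest value of either genotype came from Rbpj +/+_1156 and Rbpj -/-_N3, the arrays with brighter dim probes, and the genotypes overlapped. The difference was -0.53 (SE 0.50, 95% interval -1.66 to 0.59) with a limma adjusted p of 0.460. It became -0.92 with an adjusted p of 0.0630 without both of these arrays, -1.16 with 0.0731 without Rbpj -/-_N3 alone, and -0.03 without Rbpj -/-_N5.

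Hey2 and Nrarp were not well above background on most arrays. The Hey2 probe (chr10:30552729-30552788, mm9, minus strand), whose promoter stretches carry the RBPJ motif, was well above background on 0 of 7 arrays, at intensities of 1.48 to 5.29. The Nrarp probe (chr2:25038038-25038097, mm9, plus strand), for a small ankyrin repeat protein that limits Notch signalling, was well above background in Rbpj -/-_N3 only, at an intensity of 21.2, and read 1.94 to 8.92 in Rbpj+/+ and 4.48 and 5.30 in the other Rbpj-/- arrays. No fold change is given for either gene, because both genotypes were at or near background.

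The members varied to different degrees among animals of 1 genotype. Within Rbpj+/+ liver the SD of the tested members ran from 0.18 for Spen to 1.04 for Hes1, and within Rbpj-/- liver from 0.08 for Spen to 1.15 for Dtx1. Rbpj +/+_1155 had the highest control level of Rbpj, Maml1, Hes6 and Hes1, and Rbpj +/+_1156 the lowest control level of Rbpj, Hey1, Maml1 and Heyl. With the arrays of Rbpj +/+_1156 and Rbpj -/-_N3 both left out, Rbpj, Hes6 and Hey1 kept their directions and passed, at -1.33, -0.82 and 1.33 with adjusted p of 0.0272, 0.0790 and 0.0140, and Dtx1 passed as well.

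The 5 tested genes whose pattern over the 7 arrays was most like that of the brighter Rbpj probe, by Pearson's r among 18754 genes, were Tango6 (0.993), Ttc39b (0.990), Celf4 (0.987), a transcript with the array name ENSMUST00000050391 (0.984) and Lifr (0.983). Among the other members Hes6 had the highest r, 0.965. The arrays of a genotype lie together on this measure and share 1 slide row, so that these values describe the same separation of the genotypes, without a test.

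Other genes of the pathway were read from lists to place the members. Of 27 further cofactors of RBPJ 24 were tested, 4 were higher (Ctbp2, Crebbp, Sap30 and Tle3), 3 were lower (Tle1, Tle2 and Kdm5a) and 17 did not pass, with a median log2 difference of -0.01 against -0.13 for all tested genes. These 7 calls do not exceed the share of 34.2% among all tested genes. Ctbp2, a corepressor gene, rose by 1.26 (SE 0.20, limma adjusted p = 0.00404), with means of -0.44 and 0.82. Tle1, of the Groucho corepressor family that HES proteins recruit, fell by 1.16 on the log2 scale (SE 0.19, adjusted p = 0.00490), with means of 4.27 and 3.11. Tle2 of the same family fell by 0.84 (SE 0.19, adjusted p = 0.0140). Without the filter on dim probes 1 cofactor was higher and 1 lower. Crebbp, Sap30, Tle3 and Kdm5a were named after their values were seen.

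Of 7 further genes of the Hes and Hey family and its relatives only Hes7 and Bhlhe40 were bright enough for the test. Hes7 differed by -0.29 (SE 0.18, limma adjusted p = 0.274) and Bhlhe40 by 0.27 (SE 0.37, adjusted p = 0.629), so neither passed. Hes2, Hes3, Hes5, Helt and Bhlhe41 were not tested.

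Of 16 other genes reported as Notch targets 14 were tested, 6 were higher and 1, Notch1, was lower, with a median of 0.83. Over all tested genes 14.6% were higher and 19.5% lower, with a median of -0.13. Ccnd1, which encodes the G1 cyclin D1, rose by 1.75 (SE 0.28, limma adjusted p = 0.00397), from a mean of 2.79 to 4.54. Notch3, a receptor gene known from mural cells, rose by 0.75 (SE 0.22, adjusted p = 0.0369), and Efnb2, an arterial ephrin gene, by 0.89 (SE 0.29, adjusted p = 0.0540). Efnb2 was well above background on 3 of 4 Rbpj+/+ and 3 of 3 Rbpj-/- arrays, so it entered the test only through the Rbpj-/- group. The call of Efnb2 was lost after normexp correction, with a difference of 0.01, without the filter on dim probes (adjusted p = 0.257), and without Rbpj +/+_1155, Rbpj +/+_991, Rbpj -/-_N3 or Rbpj -/-_N5 (adjusted p of 0.101 to 0.184). The call of Notch3 was lost without the filter (adjusted p = 0.213) and without Rbpj -/-_2866 (0.119). The number of higher genes dropped to 2 without Rbpj +/+_1155, without Rbpj -/-_N3 or without Rbpj -/-_N5, and to 1 without the filter on dim probes. Notch1, named after its value was seen, had a difference of -1.26 (adjusted p = 0.0651), and 0 genes of the list were lower when Rbpj +/+_1156, Rbpj +/+_1024, Rbpj +/+_991, Rbpj -/-_N5 or Rbpj -/-_2866 was left out or after quantile normalization.

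Beside this list, 5 of 5 proliferation markers were higher, where 14.6% of all tested genes were higher and 19.5% lower. Their sums were 3.09 to 12.5 in Rbpj+/+ and 26.8 to 48.0 in Rbpj-/- arrays. Top2a was well above background on 1 of 4 Rbpj+/+ and 3 of 3 Rbpj-/- arrays. It entered the test only through the Rbpj-/- group, where it was high. Of 8 stellate and fibroblast markers 5 were higher and 0 lower (sums of 115.9 to 185.4 and 221.0 to 260.5), and of 7 macrophage markers 5 were higher and 0 lower (sums of 71.4 to 94.6 and 245.1 to 329.4). The 5 leukocyte markers on the array gave 3 higher and 2 lower. Cd79a, which was lower, cleared the background on 4 of 4 Rbpj+/+ and 2 of 3 Rbpj-/- arrays, so it entered through the Rbpj+/+ group only. The part of these cells in the list was not tested. Of 32 genes for Notch receptors, ligands and their processing, 29 were tested, 4 were higher and 6 lower, with a median of 0.11. These 10 calls are close to the share of 34.2% among all tested genes. The balance turned to 7 higher and 4 lower after quantile normalization and in the series matrix, which is not a separate scaling.

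**Figure D3:**
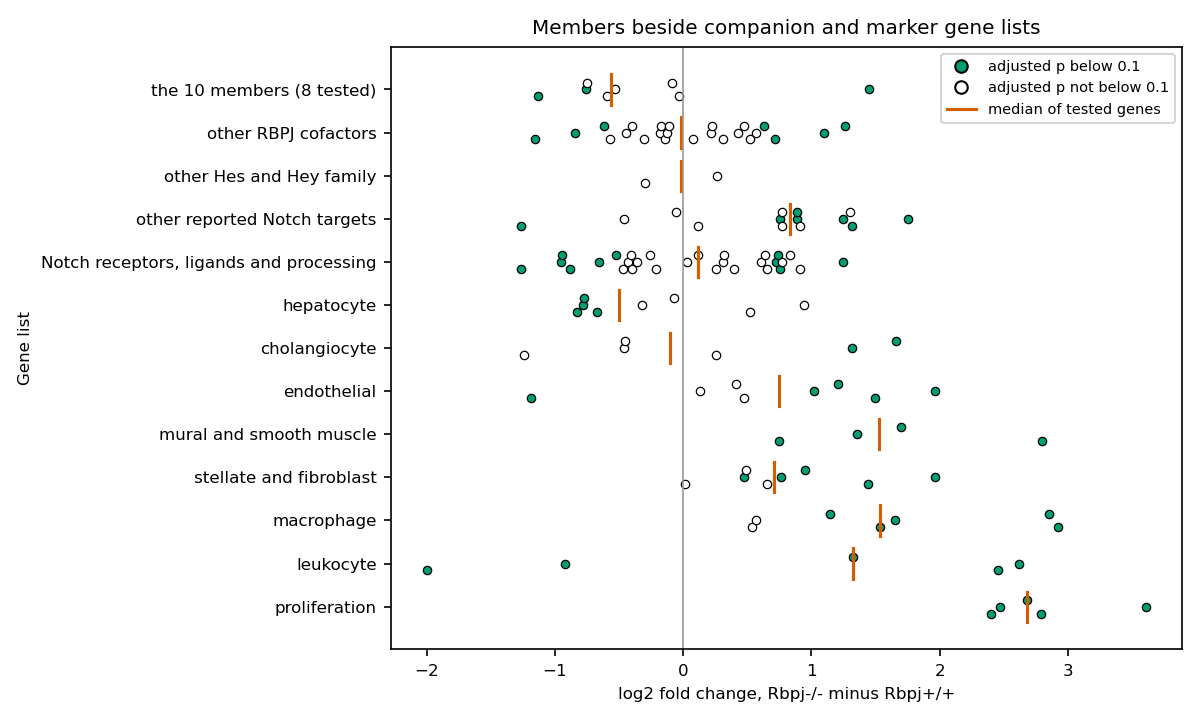
Log2 difference between Rbpj-/- and Rbpj+/+ liver (horizontal axis) for each tested gene of the members, the companion lists and the cell type marker lists (rows), filled where the limma adjusted p was below 0.1, with orange bars for the median of each row. The members lie on both sides of 0 with a median of -0.56, the other reported Notch targets have a median of 0.83, and the proliferation markers all lie right of 0. Genes on 2 lists appear in both rows.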

How the data were processed

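Per the labels and methods, total RNA of each liver was labelled with Cy3. The authors deposited Feature Extraction 10.7.3.1 output, with background-subtracted spot intensity values not normalized between arrays and, as other columns, the quality flags used here, and a series matrix of log2 values. The latter correlated at r = 1 with quantile-normalized, probe-centred intensities.

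Control probes and spots flagged as non-uniform or population outliers were left out (146 probe values), duplicate spots averaged, and the 75th percentile of log2 intensity subtracted. The 24548 probes that cleared the background in every animal of 1 genotype or of both, by the flags for positive and significant signal and for signal well above background, entered limma 3.58.1 (R 4.3.3), two-sided, Benjamini-Hochberg adjusted over these probes, at a threshold of 0.1, and a gene was read by its brightest tested probe. The number of arrays limits the precision, and the labels give 1 array per animal.

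Gene names were brought up to date through accessions (28331 probes), symbols (2209) and synonyms (174). The other 24967 of 55681 probes kept their array name. Each distinct name was counted as a gene, also in the shares over all tested genes. Coordinates are those of the array design. By rule, the text names all members, up to 3 tested genes with the smallest adjusted p from each of 3 companion lists, and the 5 genes most like Rbpj. Other companion genes and the cell type and proliferation markers named were chosen after their values were seen. Members, lists and tests were chosen with earlier results of these data known. Of these steps only the limma fit was tested on simulated data.

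The alternatives were normexp correction (offset 50), quantile normalization, the percentile over detected probes only, no filter on dim probes, detection in all 7 animals, compromised spots kept, limma-trend, array weights, the series matrix, a threshold of 0.05, the mean over a gene's probes and each animal left out. Leaving out Rbpj +/+_1156 and Rbpj -/-_N3 together, the alternatives for companion genes and for the probe on chromosome 6, the mean over probes for Rbpj, and limma-trend and array weights for the count over all genes were added after seeing the data.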

Additional observations from a re-analysis of the deposited data

Results flagged for a closer look

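Among the 11 member probes, 3 had a single Rbpj+/+ array that stood apart from the other controls by more than Dixon's 95% limit for 4 values. Chance alone sets such a mark in about 1 of 20 groups. Hes1 was at 1.34 in Rbpj +/+_1155, where the gap to the next control took up a share of 0.960 of the range. Hey1 was at -2.21 in Rbpj +/+_1156, with a share of 0.886. Maml1 was at 1.34 in Rbpj +/+_1156, with a share of 0.888. Without Rbpj +/+_1155 the Hes1 difference moved from -0.60 to -0.08. Without Rbpj +/+_1156 the Hey1 difference moved from 1.45 to 1.28, still called, and the Maml1 difference from -0.09 to -0.24, not called.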

How the results depend on the processing

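Rbpj was lower under all alternatives, with differences from -1.38 to -0.66. The value of -1.38 is the mean over both probes, including the one placed on chromosome 6, and the lowest otherwise was -1.33. Rbpj passed in all but 1 alternative, since without the filter on dim probes the difference of -1.13 had an adjusted p of 0.108. With each animal left out its difference ranged from -1.24 to -1.01. The number of members that passed was 3, and it was 1 (Hey1) without the filter, 2 to 4 with each animal left out and 2 to 4 under the remaining alternatives. Among the tested members the direction turned only for Spen and Maml1, both close to no change. Spen differed by 0.049 with the percentile over probes detected on all arrays, by 0.0030 in the series matrix, by 0.049 without Rbpj +/+_1024 and by 0.014 without Rbpj -/-_N3, and its range with each animal left out was -0.093 to 0.049. Maml1 differed by 0.027 without Rbpj -/-_N3, in a range of -0.24 to 0.027. Over all genes, 6406 passed, and the count was 1639 without the filter, where 35666 genes were tested, and 3716 without Rbpj -/-_N5. The companion lists' counts moved between 1 and 6 cofactors higher, 1 and 5 lower, 1 and 7 other Notch targets higher, 0 and 2 lower, and 1 and 7 receptor, ligand and processing genes higher, 1 and 8 lower. No paired analysis was possible because the labels give animal numbers that the genotypes do not share. With 4 and 3 arrays the intervals of Hes1, Heyl and Dtx1 remained wide, the probes of Hey2 and Nrarp were too dim to be tested, and slide row and cholestasis coincide with genotype.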
